A study of Mus musculus with 3 samples.

Results

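The genes described here encode nuclear receptors, their coregulators and the Mediator complex in mouse thymocytes. They are those whose symbol marks them as nuclear receptors, Ncoa or Ncor coregulators, Ppargc1 coactivators or numbered Mediator subunits, leaving out the glucocorticoid receptor gene Nr3c1 and the Nr4a genes. They were chosen by symbol alone, from probes that the platform annotation gives exactly 1 gene symbol, and probes were averaged per symbol. The rule found 42 genes, measured by 47 probes, among 6795 genes with such probes. They comprise 20 nuclear receptors, 6 coactivators, 15 Mediator subunits and 1 pseudogene, Ncoa4-ps, which was matched by its symbol alone. The receptors divide into 11 of the subfamily that includes the retinoic acid, thyroid hormone and vitamin D receptors, 5 of the subfamily of RXR and the COUP transcription factors, and 4 others. Corepressor genes of the Ncor family were not analysed here.

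Nuclear receptors are transcription factors that are switched by small fat-soluble ligands such as retinoic acid, vitamin D, oxysterols and fatty acids, and orphan members act without a known ligand. Most bind short DNA half-sites, often as a heterodimer with a retinoid X receptor (RXR). Coactivators of the Ncoa and Ppargc1 families bind the liganded receptor, and the multi-subunit Mediator complex passes the signal on to RNA polymerase II. In thymocytes, retinoic acid receptor-related orphan receptors (RORs) are known for their part in the survival of immature CD4+CD8+ cells, and retinoic acid and other ligands modulate T cell development.

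The CD69hi RNA came from thymocytes with high surface CD69, a marker of recent T cell receptor (TCR) signalling, purified from wild-type B6 mice. It was compared with RNA of unseparated thymocytes of Zap70-/- mice, which lack the kinase that relays that signal and therefore hold few cells past the CD4+CD8+ stage. The sample titles call this second RNA CD69lo, while the source names and descriptions give Zap70-/-, which is followed here. Both total RNAs were hybridised together on each of 3 spotted 2-colour arrays, with the CD69hi RNA in Cy3 on arrays 1 and 2 and in Cy5 on array 3. The labels give neither ages nor numbers of mice, nor whether different mice were used for each array, so p-values here reflect no more than the scatter of 3 arrays, part or all of which may be technical. Genotype and purification differ together between the 2 RNAs and cannot be told apart. Precision is limited by the number of arrays, 3.

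Every ratio below is the log2 ratio of CD69hi over Zap70-/- RNA, after the deposited ratios of arrays 1 and 2 were multiplied by -1. This direction is likely but is not stated by the submitters. It follows the labelled dyes and the sign of the immature thymocyte genes Rag1 (-1.19 ± 0.36, SD, n = 3, adjusted p = 0.035) and Dntt (-1.05 ± 0.71, adjusted p = 0.12), and the opposite reading would turn every sign. For Rag1, leaving out array 1 or array 2 gave an adjusted p of 0.13 or 0.18. A gene passed where limma's Benjamini-Hochberg adjusted p, over all 8905 features, was at most 0.05. The RNAs also differed in markers of other cells, since 6 of 11 macrophage and dendritic cell genes rose in CD69hi RNA. That list had medians of 1.74, 2.17 and 1.79 on arrays 1, 2 and 3. The 6 were Lyz2 (2.51), Apoe (2.46), C1qa (2.23), C1qc (2.11), C1qb (1.92) and Ctss (2.83). Of 6 granulocyte genes 1, S100a8, fell (-0.86 ± 0.27, adjusted p = 0.049), and the list medians were -1.03, -1.39 and -0.56 on the 3 arrays. S100a8 lost its call when array 1, 2 or 3 was left out (adjusted p = 0.18, 0.35 and 0.052). It also lost it after scaling (adjusted p = 0.065), after quantile normalization (0.054) and when probes were fitted alone (0.051). None of 4 B cell, 6 epithelial and stromal or 1 erythroid gene passed (limma, although 2, 2 and 1 of them had an unadjusted p within 0.05), and Rag1 was the 1 gene of 8 thymocyte genes that did. What these cells contributed to the ratios below was not tested.

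Of the 42 genes, 1 rose and 2 fell. The 1 that rose was Rora, and the 2 that fell were the Mediator genes Med22 and Med30. These 3 are 7.14% of the 42, and 6.94% of all features passed, 4.13% higher and 2.81% lower, so the number that passed was near the background. The median ratio of the 42 genes was -0.04, against 0.01 for all features, and their median absolute ratio was 0.30 against 0.23. A mean ratio beyond 1 in either direction was reached by 5 of the 42 (11.9%), against 6.63% of all features. These RNAs come from mixed cell populations, so fewer cells of a type and less RNA per cell cannot be told apart.

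**Figure D1:**
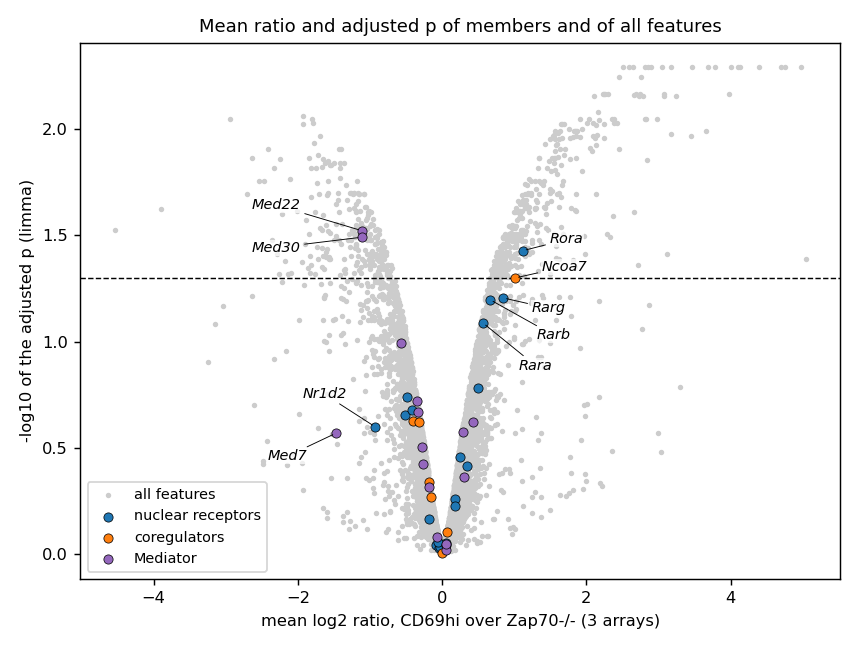
Mean log2 ratio of CD69hi over Zap70-/- RNA on 3 arrays (x axis) against -log10 of limma's adjusted p (y axis), for all 8905 features in grey and for the 42 genes by role in colour. Points above the dashed line passed an adjusted p of 0.05; Rora lies above it on the right, Med22 and Med30 on the left, and Ncoa7 just under it.

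The 3 retinoic acid receptor genes had the highest receptor ratios after Rora, so the promoter bases before their starts are shown, chosen after the values were seen, from RefSeq (GRCm38.p6, 5′ to 3′ on the gene's strand), together with that of Med22. The Rarb stretch is chr14:16575477-16575726 on the minus strand, and the first listed Rara stretch chr11:98937446-98937695 on the plus strand. The first listed Rarg stretch is chr15:102257523-102257772 and the Med22 stretch chr2:26910643-26910892, both on the minus strand. The Rarb and Rara stretches lie inside the listed gene spans (chr14:16430839-17082331 and chr11:98927800-98974942), before inner starts. Which start the probes measured was not tested. Capitals mark matches, on either strand, to 3 motifs: the receptor half-site AGGTCA, the GC box GGGCGG, and GGTTCA followed after a gap of 5 bases by AGTTCA, the direct repeat known as the retinoic acid response element of Rarb, through which receptor and ligand act on the receptor's own gene. Each stretch is 250 bases long.
Rarb: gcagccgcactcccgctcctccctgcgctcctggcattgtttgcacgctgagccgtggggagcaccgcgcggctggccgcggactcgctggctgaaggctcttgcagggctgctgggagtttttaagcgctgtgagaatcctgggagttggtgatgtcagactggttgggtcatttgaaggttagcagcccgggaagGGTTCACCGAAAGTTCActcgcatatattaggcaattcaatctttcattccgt
Rara: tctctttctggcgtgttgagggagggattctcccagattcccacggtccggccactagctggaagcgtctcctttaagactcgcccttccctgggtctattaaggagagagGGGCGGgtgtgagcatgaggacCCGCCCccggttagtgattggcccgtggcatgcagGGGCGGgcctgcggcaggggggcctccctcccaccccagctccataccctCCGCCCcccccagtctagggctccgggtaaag
Rarg: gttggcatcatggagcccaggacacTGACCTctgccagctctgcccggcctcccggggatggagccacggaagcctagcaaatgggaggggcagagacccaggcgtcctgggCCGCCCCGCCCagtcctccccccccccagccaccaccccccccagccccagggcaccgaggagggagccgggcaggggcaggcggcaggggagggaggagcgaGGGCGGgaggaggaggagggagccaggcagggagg
Med22: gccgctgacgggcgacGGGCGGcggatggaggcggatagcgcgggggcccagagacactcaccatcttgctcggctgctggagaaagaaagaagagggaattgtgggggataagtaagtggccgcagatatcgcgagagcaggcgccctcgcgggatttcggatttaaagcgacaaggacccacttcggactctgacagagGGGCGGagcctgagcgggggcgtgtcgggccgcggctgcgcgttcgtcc
In the Rarb stretch the response element lay at bases -53 to -37 before that listed start. The motif is this gene's own known element, so its match there was fixed by the choice of motif. It was held by 2 of 32851 such stretches (0.00609%), which is the rarity of a long motif and no result about Rarb. AGGTCA was held by 14.0% of all stretches and by 13 of the 53 stretches (24.5%) of the 36 genes of the set with an entry, the first listed Rarg stretch among them. GGGCGG was held by 32.7% of all stretches and by 27 of those 53 (50.9%). By gene, 11 of the 36 held AGGTCA and 22 held GGGCGG. Stretches of the same gene can overlap, as do the first 2 listed for Rara, so the 53 are not independent. Overlapping matches were counted separately, as the neighbouring pair in Rarg. The single Rora stretch held none of the 3 motifs. A match is a description of letters and does not show binding.

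Rora encodes RORα, an orphan receptor that activates genes through ROR response elements. Its ratios were 1.01 on array 1, 1.502 on array 2 and 0.84 on array 3. All 3 arrays had it higher in CD69hi RNA, with array 2 the highest. The mean was 1.12 ± 0.34 (SD, n = 3), a 2.17-fold difference (adjusted p = 0.037). Leaving out array 1, 2 or 3 gave Rora an adjusted p of 0.12, 0.21 or 0.051, and scaling the arrays to one spread gave 0.052, none of which passed.

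The 3 retinoic acid receptor genes, which encode the ligand-bound partners of RXR, had positive ratios on every array, but none passed. Rarg had 0.68, 0.63 and 1.23 on arrays 1, 2 and 3 (mean 0.85 ± 0.33, adjusted p = 0.062). Rarb had 0.84, 0.65 and 0.50 (mean 0.66 ± 0.17, adjusted p = 0.063). Rara had the lowest mean and the smallest spread of the 3, with 0.42, 0.62 and 0.66 (mean 0.57 ± 0.13, adjusted p = 0.081). Among all features, 24.3% were above 0 on every array. Rarg and Rarb passed in the fit with a dye term (adjusted p = 0.030 and 0.049), which leaves 1 residual degree of freedom, and Rarg also passed with quantile normalization (adjusted p = 0.043). Without array 2 their adjusted p was 0.23 and 0.41. The probes are spotted cDNAs and can bind transcripts of related genes, so a shared signal within the family cannot be told apart from separate changes.

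The receptors for other lipid ligands spread on both sides of 0. Nr1h3 encodes the oxysterol receptor LXRα, which is abundant in macrophages. Its ratios were 0.59, 0.72 and 0.17, all above 0, and it did not pass (mean 0.49 ± 0.28, adjusted p = 0.16). In the same RNA 6 of 11 macrophage and dendritic cell genes rose, and their part in this value was not tested. Pparg, the receptor of fat cell and macrophage differentiation, had 0.08, 0.11 and 0.87 (mean 0.35 ± 0.45, adjusted p = 0.38), with array 3 standing apart. Ppara, which controls fatty acid oxidation, had -0.78, -0.02 and -0.75 (mean -0.52 ± 0.43, adjusted p = 0.22). The vitamin D receptor gene Vdr lay below 0 on each array, at -0.59, -0.72 and -0.13 (mean -0.48 ± 0.31, adjusted p = 0.18). The bile acid receptor gene Nr1h4 (-0.04 ± 0.44) and the thyroid hormone receptor gene Thrb (-0.08 ± 0.75) had both signs among their arrays.

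Nr1d2 encodes REV-ERBβ, a repressor that binds the same response elements as the RORs and belongs to the circadian clock. It had 0.24 on array 1, but -1.46 on array 2 and -1.55 on array 3. The arrays thus disagreed in sign, although the mean, -0.92 ± 1.01, was the lowest of all receptors (adjusted p = 0.25). Without array 1 its mean was -1.504 and it passed (adjusted p = 0.045). Of 9 measured clock genes 0 passed (limma; 0 above and 1 below 0 had an unadjusted p within 0.05), with a list median of 0.16. The clock activator gene Arntl was at -0.64 ± 0.08 (adjusted p = 0.058) and Per1 at 0.34 ± 0.21 (adjusted p = 0.25). Arntl passed with a dye term (adjusted p = 0.047).

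Among the RXR and COUP genes none passed (limma; 0 above and 1 below 0 had an unadjusted p within 0.05), and their means lay between -0.42 and 0.17. Rxrb, a heterodimer partner of the retinoic acid receptors, was below 0 on every array with -0.61, -0.52 and -0.11 (mean -0.42 ± 0.26, adjusted p = 0.21). Rxra averaged 0.17 ± 0.24 (adjusted p = 0.55), but its 2 probes differed. One probe had 0.44, 0.65 and 0.37 (mean 0.49 ± 0.15), and the other 0.06, 0.08 and -0.56 (mean -0.14 ± 0.36). The COUP genes Nr2f1 (0.05 ± 0.34), Nr2f2 (-0.03 ± 0.26) and Nr2f6 (-0.18 ± 0.50) had both signs. Of the 4 remaining receptors none passed (limma; 0 had an unadjusted p within 0.05). Nr5a2, an orphan receptor of liver and gonads, was positive on each array with 0.45, 0.15 and 0.15 (mean 0.25 ± 0.17, adjusted p = 0.35). The estrogen-related receptor gene Esrra (0.18 ± 0.32, adjusted p = 0.59), the germ cell factor gene Nr6a1 (0.05 ± 0.47) and the estrogen receptor gene Esr1 (-0.05 ± 0.31) had arrays of both signs.

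**Figure D2:**
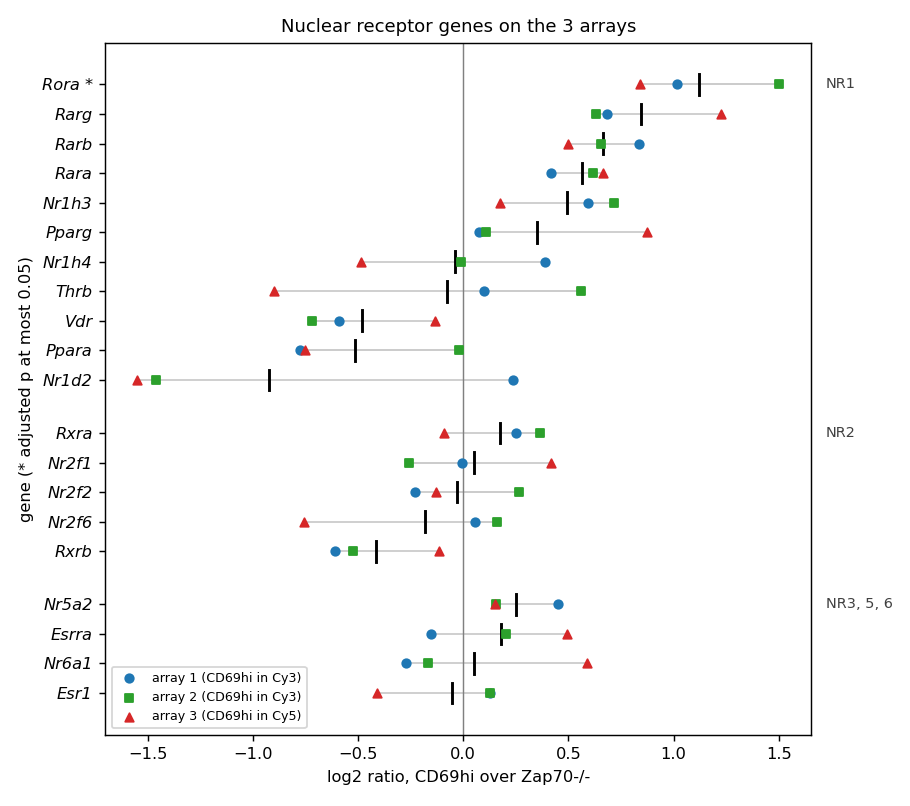
Log2 ratio of CD69hi over Zap70-/- RNA (x axis) for the 20 nuclear receptor genes (y axis, by subfamily) on the 3 arrays; symbols are arrays, black bars the mean and grey lines the range. Rora (starred, adjusted p at most 0.05) and the 3 retinoic acid receptor genes lie above 0 on every array, while Nr1d2 has array 1 above 0 and arrays 2 and 3 near -1.5.

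Among the 6 coactivators none passed (limma; 1 above and 0 below 0 had an unadjusted p within 0.05), and their median was -0.09. Ncoa7, a receptor-binding coactivator, was the closest. It had 0.80, 1.45 and 0.78, a mean of 1.01 ± 0.38 (2.02-fold), and missed the threshold narrowly (adjusted p = 0.0501). It passed with robust shrinkage (adjusted p = 0.047) and with quantile normalization (adjusted p = 0.0497), and did not without array 2 (adjusted p = 0.28). The steroid receptor coactivator genes Ncoa1 (-0.18 ± 0.07) and Ncoa2 (0.01 ± 0.16) lay near 0, and Ncoa6 had -0.41, -0.34 and -0.19 (mean -0.31 ± 0.11, adjusted p = 0.24). The mitochondrial biogenesis coactivator genes Ppargc1a (0.07 ± 0.14) and Ppargc1b (-0.40 ± 0.29, adjusted p = 0.24) did not pass. The pseudogene Ncoa4-ps was at -0.15 ± 0.10, and its probe could also bind Ncoa4 transcripts, which was not tested.

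Of the 15 Mediator genes 2 fell, 0 rose and 13 did not pass, with a median ratio of -0.26. The 2 are 13.3% of the 15, while 6.94% of all features passed, 2.81% of them all lower. Whether this small count differs from the background was not tested. The list median was -0.29, -0.25 and -0.22 on arrays 1, 2 and 3. Below 0 on every array were 9 of the 15 (60.0%), against 22.7% of all features, and above 0 on every array 2 (13.3%, against 24.3%). The 9 include Med13l by its averaged ratio, although its 2 probes lay on opposite sides of 0 on every array. Thymocyte genes had list medians of -0.35, -0.28 and -0.17 on the same arrays, and granulocyte genes those given above.

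Med22, a subunit of the Mediator head, the part that contacts RNA polymerase II, had -1.06, -1.39 and -0.89. It was lower in CD69hi RNA on every array, with a mean of -1.11 ± 0.26 (adjusted p = 0.030), a 2.16-fold difference. The call was lost when array 1 or array 2 was left out (adjusted p = 0.11 and 0.19). Med30, a subunit found in animals but not in yeast and counted here with the tail, had -1.45, -0.94 and -0.96, again below 0 throughout. Its mean was -1.12 ± 0.29 (adjusted p = 0.032), a 2.17-fold difference. Leaving out array 1, 2 or 3 gave Med30 an adjusted p of 0.12, 0.13 or 0.054.

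The 13 other subunits did not pass and lay on both sides of 0. In the head, Med8 was above 0 on every array with 0.19, 0.28 and 0.82 (mean 0.43 ± 0.34, adjusted p = 0.24). Med20 ranged from -0.80 on array 2 to 1.17 on array 1 (mean 0.05 ± 1.01). In the middle, Med7 had the lowest mean of the 42 genes, -1.47 ± 1.74 (adjusted p = 0.27), which rested on array 2. Its ratios were -0.23, -3.46 and -0.73, and without array 2 the mean was -0.48. Med1, the subunit that binds liganded receptors directly, had -0.18, -0.18 and -0.47 (mean -0.28 ± 0.17, adjusted p = 0.31), and its 2 probes gave means of -0.29 and -0.26. Med21 was at -0.26 ± 0.23 (adjusted p = 0.38).

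Med25, Med28, Med24, Med16 and Med27 were counted here with the tail, which activators contact, by a list that was not tested. Med25 had -0.80, -0.52 and -0.38 (mean -0.57 ± 0.22, adjusted p = 0.10). Med28 had the smallest spread of the 42 genes, with -0.33, -0.38 and -0.32 (mean -0.34 ± 0.03, adjusted p = 0.19). Med24 was at -0.34 ± 0.11 (adjusted p = 0.21). Med16, by contrast, was above 0 on every array with 0.17, 0.34 and 0.36 (mean 0.29 ± 0.11, adjusted p = 0.27), and Med27 (-0.07 ± 0.28) had both signs. In the kinase module, which docks reversibly on the complex, Med12 (0.31 ± 0.43, adjusted p = 0.43), Med13 (0.05 ± 0.39) and Med13l (-0.18 ± 0.16, adjusted p = 0.48) did not pass.

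**Figure D3:**
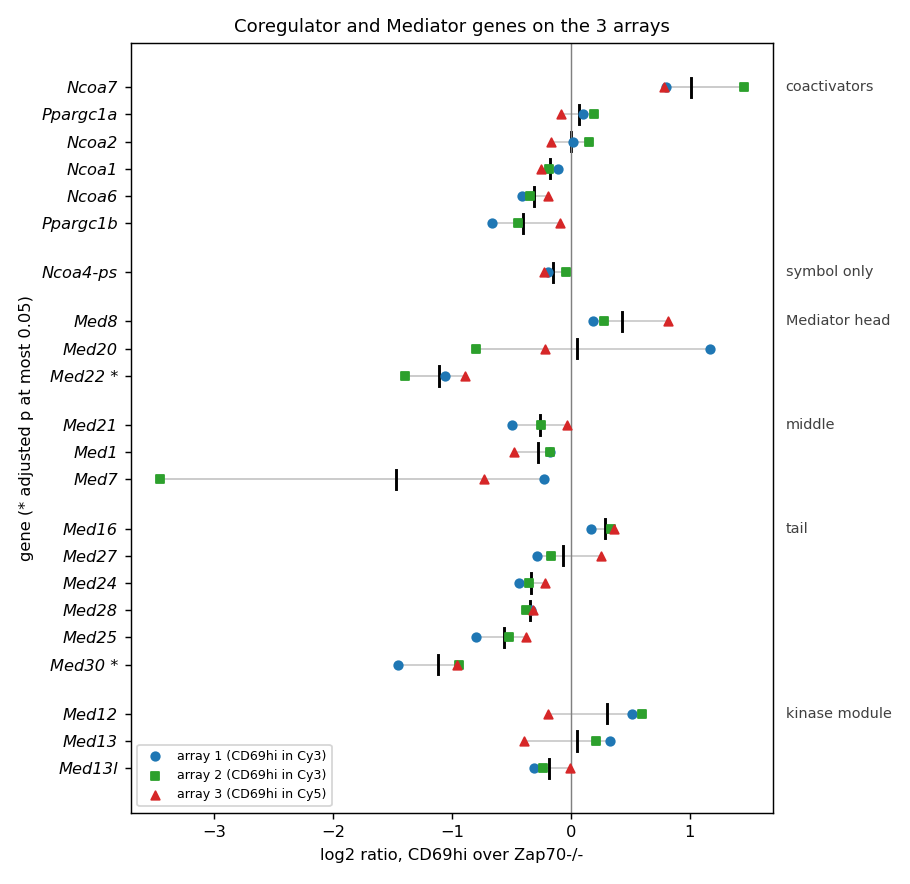
Log2 ratio of CD69hi over Zap70-/- RNA (x axis) for 6 coactivator genes, the pseudogene Ncoa4-ps and 15 Mediator genes by module (y axis) on the 3 arrays; symbols are arrays, black bars the mean and grey lines the range. Med22 and Med30 (starred) lie below 0 on every array, Ncoa7 lies above 0, and the mean of Med7 rests on array 2 at -3.46.

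The probes of 5 genes could be compared with each other, since Med1, Med13l, Ncoa1, Ppargc1a and Rxra had 2 each. Med13l, a paralogue of Med13 in the kinase module, had probes of opposite sign on all 3 arrays. One probe had -0.69, -0.78 and -0.46 (mean -0.65 ± 0.17, adjusted p = 0.070), and the other 0.08, 0.31 and 0.45 (mean 0.28 ± 0.19, adjusted p = 0.32). The averaged ratio of Med13l therefore describes neither probe. For Med1 and Ncoa1 the probe means differed by -0.03 and 0.06, and for Ppargc1a by 0.23.

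**Figure D4:**
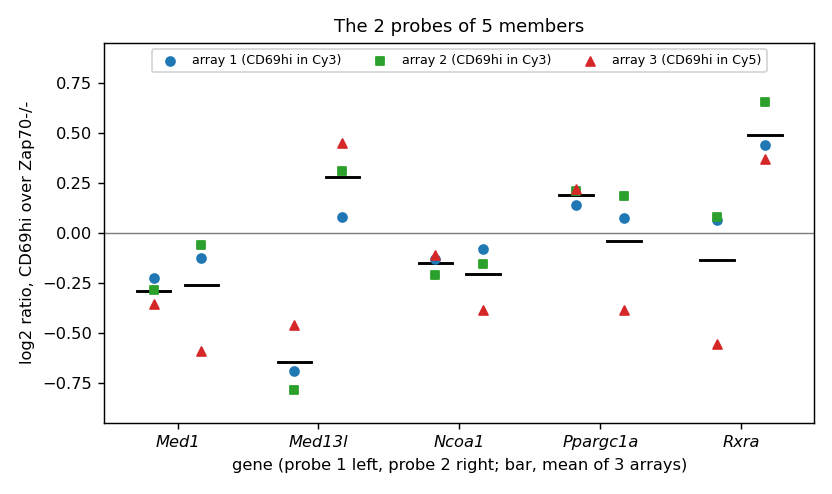
Log2 ratio of CD69hi over Zap70-/- RNA (y axis) of each of the 2 probes of 5 genes (x axis) on the 3 arrays; symbols are arrays and bars the mean of the 3. The Med13l probes lie on opposite sides of 0 on every array, and the Med1 and Ncoa1 probe means nearly coincide.

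Rora, Med22 and Med30 each missed the threshold without array 1 and without array 2, where the fit has 1 residual degree of freedom in place of 2. Rora and Med30 also missed it without array 3 (limma adjusted p = 0.051 and 0.054), and Rora after scaling (0.052). The ratios of all 3 genes kept their sign in all 9 alternatives. Rora had 0.93 to 1.26 when single arrays were left out, Med22 -1.23 to -0.97 and Med30 -1.20 to -0.95.

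**Figure D5:**
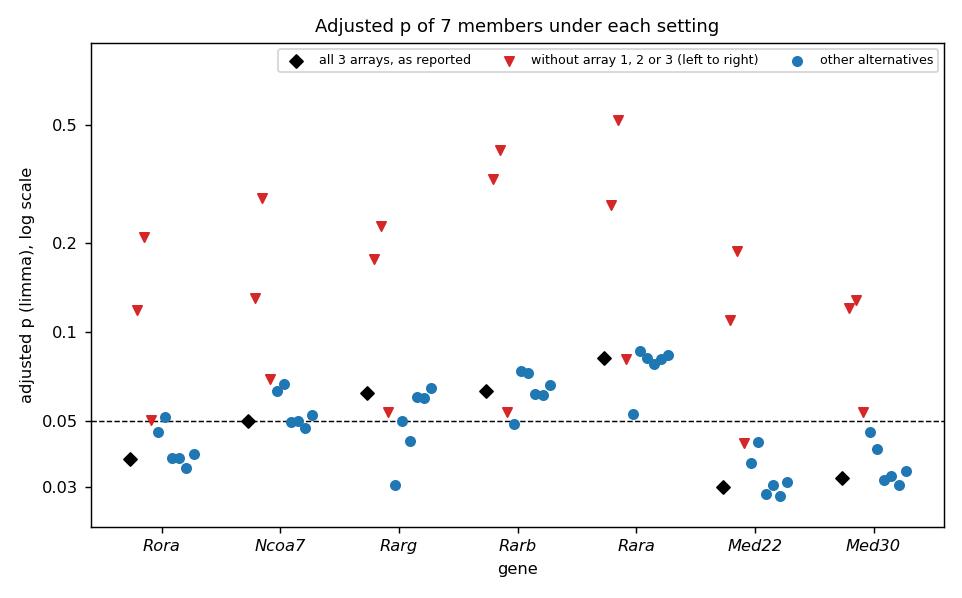
Adjusted p from limma on a log axis (y axis) of 7 genes (x axis) with all 3 arrays (diamonds), without array 1, 2 or 3 (triangles, left to right) and in the 6 other alternatives (circles); the dashed line is 0.05. Rora, Med22 and Med30 lie under the line with all arrays and above it without array 1 or 2. Rora and Med30 also lie above it without array 3, and Rora after scaling. Rarg crosses it in 2 alternatives, Rarb in 1 and Rara in 0.

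Genes around the receptors were read from 6 lists of partners and known targets, of whose 136 genes 72 were measured. Of these 3 rose and 2 fell (6.94%), a share equal to the background. Among 14 fatty acid oxidation and other PPAR target genes 2 rose and 0 fell, with a median of -0.18. Pdk4, a kinase that turns cells from glucose towards fatty acid use, had 0.82, 1.10 and 1.09 (mean 1.00 ± 0.16, adjusted p = 0.029). Cidea, a lipid droplet protein, had 0.64, 0.79 and 0.74 (mean 0.72 ± 0.08, adjusted p = 0.044). Pdk4 lost its call when array 1 or 2 was left out (adjusted p = 0.091 and 0.20). Cidea lost it when any single array was left out (adjusted p = 0.054 to 0.37) and after scaling (adjusted p = 0.052).

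Of 11 liver X receptor and sterol genes 1 rose, with a median of 0.30. It was Apoe, the apolipoprotein E gene (2.31, 2.50 and 2.57, mean 2.46 ± 0.14, adjusted p = 0.0057), which is also in the macrophage list. The LXR target genes Abca1 (0.45 ± 0.16, adjusted p = 0.14) and Abcg1 (-0.11 ± 0.10, adjusted p = 0.65), chosen after their values were seen, did not pass. Of 11 genes of retinoid handling and retinoic acid response 1 fell, with a median of 0.03. Dhrs3, which turns retinaldehyde back into retinol and is itself induced by retinoic acid, had -2.71, -2.57 and -1.73 (mean -2.34 ± 0.53, adjusted p = 0.015). The retinoic acid-degrading enzyme gene Cyp26a1 was at -0.05 ± 0.12 (adjusted p = 0.85) and is likewise named after its value was seen. Apoe and Dhrs3 passed in every alternative.

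Of 15 genes of Mediator's kinase partners, RNA polymerase II and general factors 1 fell, with a median of -0.13. Gtf2h4, a subunit of the general factor TFIIH, had -2.10, -1.998 and -1.19 (mean -1.76 ± 0.50, adjusted p = 0.025). Leaving out array 1 or 2 gave it an adjusted p of 0.073 or 0.076. Of 12 coregulator enzymes and partners 0 passed (limma; 0 above and 2 below 0 had an unadjusted p within 0.05), with a median of -0.11. The acetyltransferase gene Crebbp (-0.48 ± 0.21, adjusted p = 0.14) and the SUMO ligase gene Pias1 (-0.42 ± 0.16, adjusted p = 0.16) had the largest moderated t.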

How the data were processed

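The deposited values are 1 log ratio per probe and array for 9596 probes. No label or header names the log base, and the authors' values are taken as log2. The lowest, -9.40, would as log10 exceed a scanner's range. This does not settle log2 against a natural log, and every fold given here rests on log2. How the authors corrected background and normalized is likewise not given; array medians were -0.004, -0.005 and -0.002. Intensities were not used, so dim spots were kept. Deposited ratios correlated at r = 0.61 between arrays 1 and 2, and at -0.25 and -0.40 of these with array 3, which has the swapped dyes. After turning, the 7486 single-symbol probes were averaged by gene and all others kept alone, giving 8905 features, 6795 of them genes. The RefSeq table (GRCm38.p6) held 7395 of the probes' Entrez identifiers and changed 0 symbols. 5 probes that list a matching symbol beside another were left out.

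The test was limma 3.58.1 in R 4.3.3 (lmFit and eBayes, two-sided), with 1 coefficient and 2 residual degrees of freedom per feature. Tested on simulated data for this comparison (5 runs, 8905 features), it found 29.4% of log2 changes of size 1 and 70.8% of those of size 2, with 11 false among 512 calls. A gene that missed the threshold may therefore still differ. In the deposited data 618 features passed and features need not be independent, so the simulated rates may not carry over. All 42 genes of the set are named, more than the design had set. From the partner and target lists, named were genes that passed or, where none did, those with the largest moderated t. Abca1, Abcg1 and Cyp26a1 were added after their values were seen. A protein motif search set in the design was not run. The genes and lists were chosen with earlier results of these data known.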

Additional observations from a re-analysis of the deposited data

How the results depend on the processing

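Alternatives were leaving out each array, a dye term, scaling, quantile normalization, centring on genes, robust shrinkage and fitting each probe alone. The test is already paired, since each ratio compares both RNAs within an array, so no replicate block could be added. Among the 42 genes the number that rose (1) was 0 without each array, 0 with scaling, 2 with robust shrinkage (Rora and Ncoa7), and 3 with a dye term (Rora, Rarb and Rarg) or quantile normalization (Rora, Rarg and Ncoa7). The number that fell (2) was 0 to 1 without single arrays (Nr1d2 in place of both without array 1, Med22 without array 3) and 2 otherwise. Of all features, the 368 that rose numbered 95 to 283 without single arrays and 562 with a dye term, and the 250 that fell 24 to 409 and 514. Of the partner and target genes, the 3 that rose numbered 1 to 2 without single arrays, and the 2 that fell 1 to 4, and 5 with a dye term. The dye term itself passed for 0 features (limma; 2161 had an unadjusted p within 0.05). Of 378 values of the 42 genes in the alternatives, 21 changed sign, in 14 genes that passed in none of them. With a dye term these were Med13 (-0.061), Med20 (-0.0165), Med27 (0.0115) and Ncoa2 (-0.037), and with each probe alone Med13l (0.28), Ppargc1a (-0.0427) and Rxra (-0.14). The probe-alone value was that of the gene's probe with the smallest absolute moderated t. The other probe kept the sign, at -0.65 for Med13l, 0.19 for Ppargc1a and 0.49 for Rxra. Genes with probes of opposite sign could not pass in this alternative. Leaving out single arrays gave -0.14 to 0.13 for Esr1, -0.0895 to 0.27 for Med13, -0.51 to 0.48 for Med20, -0.23 to 0.041 for Med27, -0.0705 to 0.089 for Ncoa2, -0.25 to 0.19 for Nr1h4, -0.13 to 0.21 for Nr2f1, -0.18 to 0.066 for Nr2f2, -0.35 to 0.11 for Nr2f6, -0.22 to 0.21 for Nr6a1 and -0.40 to 0.33 for Thrb. The cause of these changes was not tested, and each leave-one-out fit also held fewer arrays.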

Other observations

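On 11 of the 42 genes (26.2%) arrays 1 and 2 lay on one side of 0 and array 3, with the dyes swapped, on the other, against 30.8% of all features. Among them were the thyroid hormone receptor gene Thrb, at 0.10, 0.56 and -0.90 on arrays 1, 2 and 3, and the COUP gene Nr2f6, at 0.06, 0.16 and -0.76. The Mediator kinase module genes Med12 (0.51, 0.60 and -0.19) and Med13 (0.33, 0.21 and -0.39) had the same signs.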
